A study of Mus musculus with 6 samples.

Results

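Type I interferon-stimulated genes were examined in mouse liver RNA as a set of 39 genes, chosen by symbol from the 54532 genes of the deposited table. The set holds antiviral effectors and the sensors and transcription factors that sustain their expression, and all 39 symbols were found. The study concerns the role of G3BP1 in steatohepatitis, a fatty liver with inflammation. Liver RNA was sequenced from mice with a hepatocyte-specific G3bp1 knockout (HKO, 3 libraries) and from litter controls with the floxed gene (Flox, 3 libraries). Both groups started a high-fat diet at 6 weeks of age and stayed on it for 12 weeks. No library came from mice on another diet, so every value describes liver under high-fat feeding. The sources used here do not give the Cre line, its promoter, the strain or the sex. Cells other than hepatocytes keep G3bp1 in this design. The labels number the libraries within each group without stating that each came from its own mouse, so a p-value here reflects the variation among these 6 samples and that variation may be technical.

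Type I interferons are secreted when cells sense foreign or misplaced nucleic acid. They bind the receptor IFNAR1-IFNAR2, the kinases JAK1 and TYK2 then activate STAT2, which acts with IRF9 in the factor ISGF3. ISGF3 binds the interferon-stimulated response element (ISRE) near the start of many genes, whose products block viral RNA, translation, entry and budding. Nearly every cell type of the liver can respond, hepatocytes and Kupffer cells included. G3BP1 nucleates stress granules and has been linked in cultured cells to sensing of RNA by RIG-I and of DNA by cGAS.

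The libraries held 16810095, 16499832 and 17954066 reads assigned to genes in HKO and 15804115, 15893656 and 16331199 in Flox. G3bp1 stood at 4.66, 4.27 and 4.44 FPKM in the HKO livers, against 8.46, 8.46 and 9.10 FPKM in the Flox livers. The groups did not overlap, and the log2 fold change in limma was -0.83 (SE 0.088, adjusted p = 0.11). FPKM scale reads to gene length and to sequencing depth, and 1 FPKM in a gene of 1 kb stood for 14.9 to 18.5 reads here. All 6 hepatocyte markers were detected in every library. Cps1, the entry enzyme of the urea cycle, stood at 397 to 737 FPKM in HKO and 485 to 694 FPKM in Flox. The library Flox 3 stood apart from the other 5 in interferon-stimulated genes. The main group results of the set are therefore given with and without it, and those of single genes in part.

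All 39 genes were highest in Flox 3, by margins that differed widely between genes. Ifit1, whose product binds viral RNA lacking host cap marks, stood at 6.56, 4.20 and 4.24 FPKM in the HKO livers, against 5.12, 5.55 and 124 FPKM in the Flox livers. The ratio of Flox 3 to the next highest library had a median of 3.95 over the 39 genes and ran between 1.497 for Bst2 and 18.9 for Ifit1. It was at least 2 for 32 genes, at least 5 for 13 and at least 10 for 4. Outside Flox 3 the ratio of the highest to the lowest of the other 5 libraries had a median of 1.71 and ran between 1.16 and 7.14, the last for Zbp1. Flox 3 was the highest library for 14.2% of all 11856 genes tested, and for all 36 of the set that were tested. It was highest by at least 2-fold for 0.717% of all genes and for 29 of the 36.

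**Figure D1:**
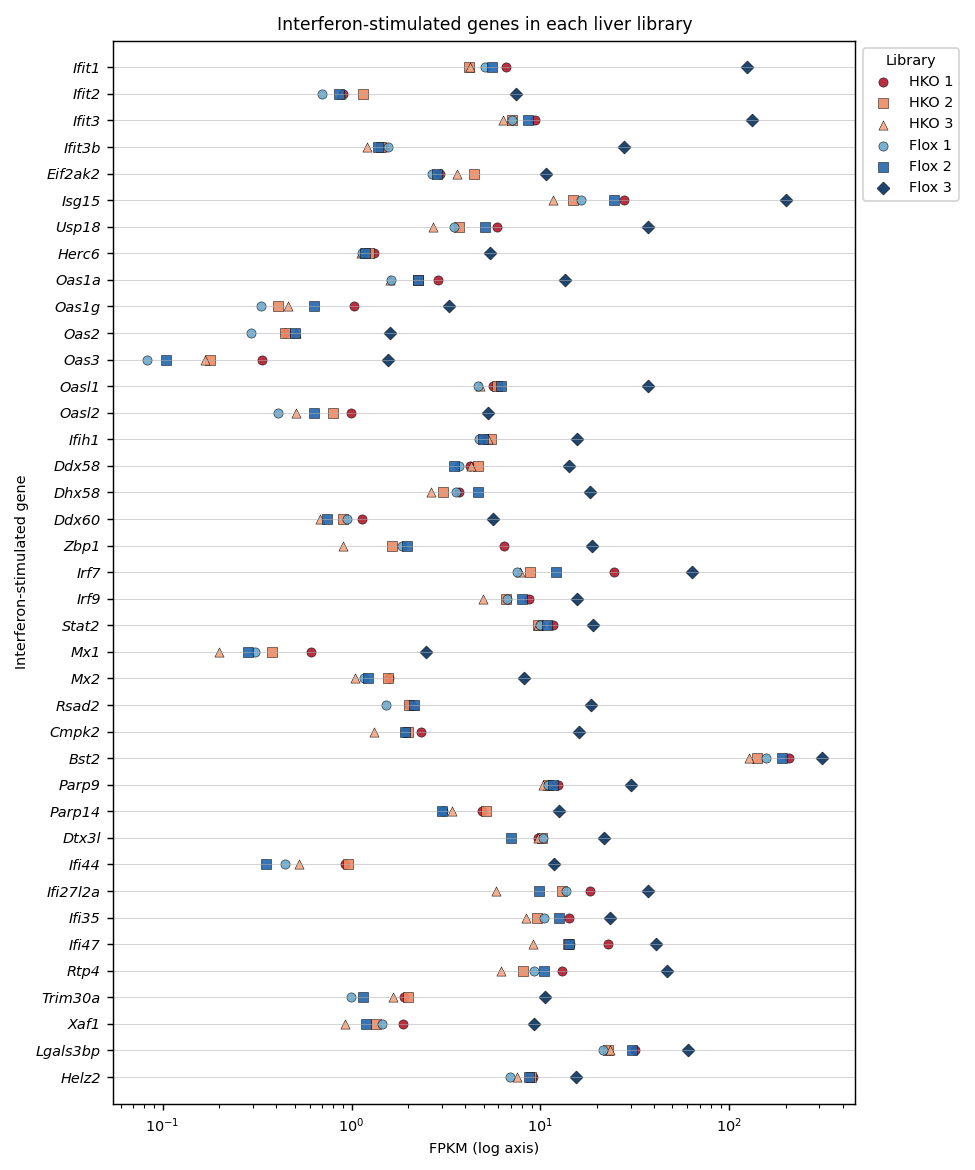
Level of each of the 39 interferon-stimulated genes (rows) in FPKM on a log axis, with 1 symbol per library, HKO in red shades and Flox in blue shades. The dark diamond of Flox 3 lies to the right of the other 5 symbols in all 39 rows, at 124 FPKM for Ifit1 and at 309 FPKM for Bst2.

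No gene of the set passed the test of HKO against Flox. Of the 39 genes, 36 had at least 0.5 FPKM in at least 3 libraries and were tested with limma on log2(FPKM + 1), and Oas2, Oas3 and Mx1 lay below that filter. With all 6 libraries 0 of 36 passed an adjusted p of 0.05 over all genes, and 0 of 36 had an unadjusted p under 0.05, also with limma's voom on recovered reads. With voom 0.0253% of all genes passed as lower and 7.75% had an unadjusted p under 0.05. Over all genes, 1 passed as lower in HKO (0.00843%) and none as higher (0%), while 4.55% were lower and 3.08% higher at an unadjusted p under 0.05. The log2 fold changes of the set lay between -1.54 and -0.15, and the adjusted p in limma between 0.685 and 0.933. All 36 genes had a lower mean in HKO, beside 51.2% of all genes. Parp14 was higher in HKO (log2 fold change 0.01) when FPKM were rescaled to TPM, and 1 gene was higher without HKO 3. The groups overlapped for all 36 genes, while of all genes 6.06% had HKO above every Flox library and 7.21% below. The median log2 fold change was -0.57 for the set and -0.01 for all genes.

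Without Flox 3 the difference between the groups was near 0. The median log2 fold change of the set was then 0.03, beside -0.01 for all genes, with 21 genes higher and 15 lower in HKO. Of all genes 52.4% were lower. The genes tested were those of the fit with all 6 libraries, Oas1g included. None of the 36 passed (smallest adjusted p of 0.256 in limma for Trim30a), and 3 had an unadjusted p under 0.05, namely Parp14, Ifi44 and Trim30a. All 3 were higher in HKO, where 6.65% of all genes were higher and 8.63% lower at that p. The 3 HKO libraries lay above Flox 1 and Flox 2 for 7 of the 36 genes, or 19.4%, beside 17.9% of all genes. They lay below for 0 of 36, beside 19.2% of all genes. The median standard error of the 36 fold changes was 0.55 with all 6 libraries and 0.16 without Flox 3.

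**Figure D2:**
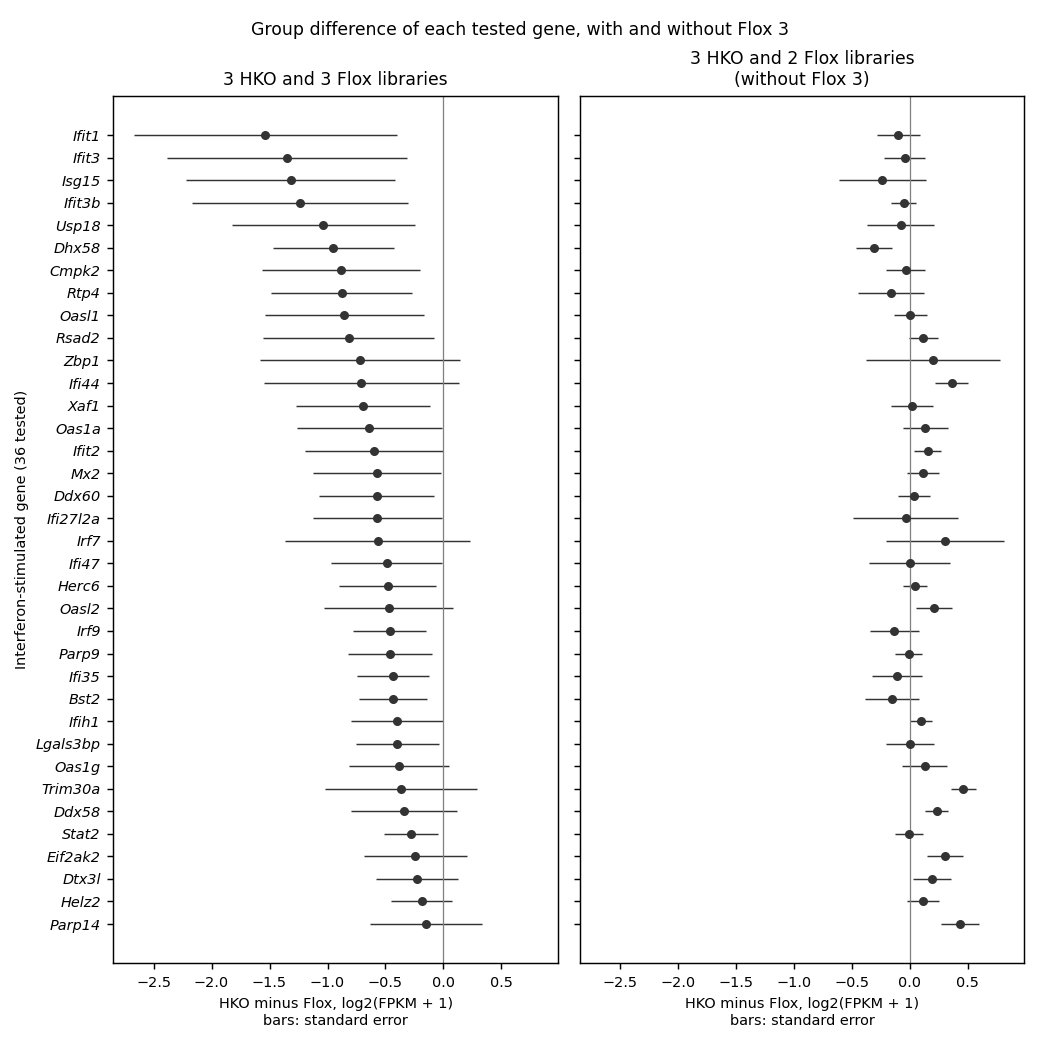
Log2 fold change of HKO over Flox, from log2(FPKM + 1), with its standard error for the 36 tested genes, with all 6 libraries (left) and without Flox 3 (right). The 36 points lie between -1.54 and -0.15 on the left and between -0.31 and 0.46 on the right, where the bars are shorter.

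The promoters of the set were read for the ISRE. The genes were chosen by symbol as interferon-stimulated, so matches may follow from that choice and do not describe these livers. RefSeq promoter windows (build GRCm38.p6, 250 bases before to 50 after the start) were matched for 29 of the 39 genes. The ISRE core was searched on both strands as GAAA, any 2 bases and GAAA again. It was present for 15 of the 29 genes, beside 3.99% of 27025 genes with a window. At least 2 matches, which may overlap each other, were present for 8 of the 29, beside 0.266% of all genes. The 4 genes with a match that had the highest mean FPKM over all 6 libraries are shown from 5′ to 3′ on the strand of the gene, together with Ifit3b, the neighbour of Ifit3, which was added after its values were seen. The means of Ifit3 and Ifit1 rest on Flox 3, and in each of the other 5 libraries Stat2, which also has a match, was higher than both. The capitals mark the ISRE matches.
Bst2: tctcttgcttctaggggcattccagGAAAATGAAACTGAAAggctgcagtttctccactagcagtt
Isg15: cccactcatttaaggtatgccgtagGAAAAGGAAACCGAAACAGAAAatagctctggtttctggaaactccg
Ifit3: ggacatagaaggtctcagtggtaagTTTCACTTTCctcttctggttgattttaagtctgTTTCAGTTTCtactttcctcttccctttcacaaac
Ifit3b: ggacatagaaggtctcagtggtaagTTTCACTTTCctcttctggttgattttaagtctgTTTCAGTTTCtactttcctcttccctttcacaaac
Ifit1: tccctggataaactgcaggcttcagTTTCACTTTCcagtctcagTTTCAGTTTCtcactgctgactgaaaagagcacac

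In Isg15 (chr4:156200850-156200921, minus strand) 3 matches overlap in 1 run whose first bases lie 78, 72 and 66 bases before the start. In Bst2 (chr8:71537562-71537627, minus strand) a pair of overlapping matches begins 130 and 124 bases before the start. The 3 Ifit genes carry the core in the other orientation. It lies 104 and 85 bases before the start of Ifit1 (chr19:34640760-34640838, plus strand). In Ifit3 (chr19:34583348-34583441, plus strand) the matches begin 156 and 122 bases before the start, and in Ifit3b (chr19:34607744-34607837, plus strand) 188 and 154 bases. The printed stretches of Ifit3 and Ifit3b are 94 bases long with 0 mismatches. The ratio of Flox 3 to the next library had a median of 4.72 over the 15 genes with a match and 3.35 over the 14 without one, with ranges of 1.497 to 18.9 and 1.65 to 12.4. Ifit3 and Ifit3b, which share the printed stretch, both count among the 15. A link between matches and the ratio was not tested.

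**Figure D3:**
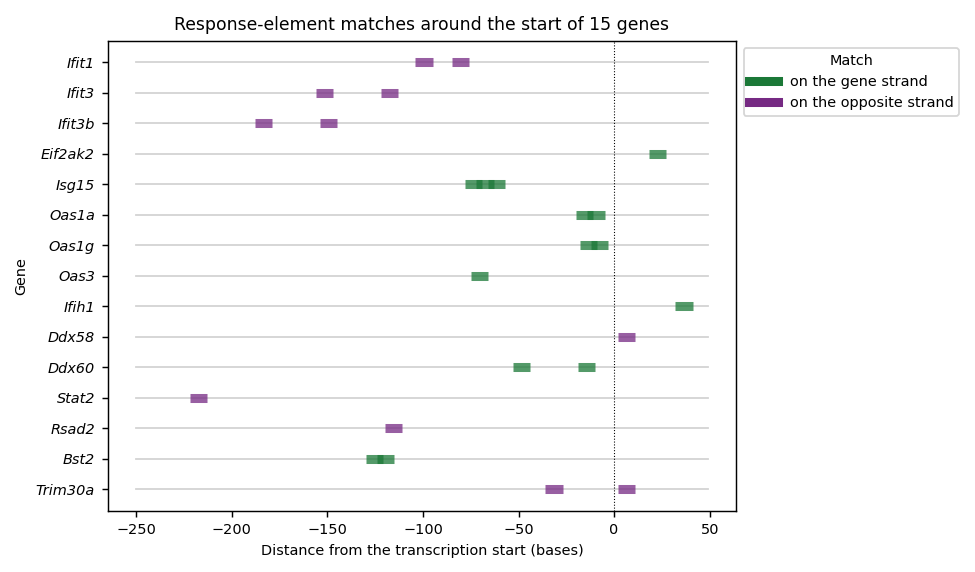
Position of each ISRE match (bars) relative to the transcription start of the 15 genes that hold one, in bases, within windows of 250 bases before to 50 after the start. Isg15 holds 3 overlapping matches, and for Trim30a the matches of 2 annotated starts are drawn on 1 line.

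The 39 genes lie on 14 chromosomes, and 17 of them fall into 6 groups of neighbours under 250 kb apart (GRCm38). The Ifit genes Ifit2, Ifit3, Ifit3b and Ifit1 span chr19:34550694-34650009, and Oas2, Oas3, Oas1g and Oas1a span chr5:120730333-120907521. Parp14, Dtx3l and Parp9 share chr16:35832874-35972605, and the antiviral enzymes Rsad2 and Cmpk2 share chr12:26442746-26479837. Neighbours stood apart in Flox 3 by unequal ratios. Within the Ifit group the ratio of Flox 3 to the next library was 6.50 for Ifit2, 14.1 for Ifit3, 17.8 for Ifit3b and 18.9 for Ifit1.

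The IFIT proteins bind foreign RNA and hinder its translation, and Ifit1, Ifit3b and Ifit3 had the widest gaps of the 39 genes. Ifit3 (ENSMUSG00000074896), the partner that stabilizes IFIT1 binding, stood at 9.40, 7.11 and 6.34 FPKM in HKO, against 7.05, 8.61 and 132 FPKM in Flox. These values rest on 291, 207 and 205 reads in HKO and 189, 223 and 3881 reads in Flox. Ifit3b stood at 1.49, 1.44 and 1.21 FPKM in HKO, against 1.56, 1.38 and 27.8 FPKM in Flox. The transcripts of Ifit3 and Ifit3b are 97.8% identical over their aligned part, so the split of reads between them is uncertain. For all 3 genes the HKO libraries overlapped with Flox 1 and Flox 2, and Flox 3 lay far above. Limma gave Ifit1 (ENSMUSG00000034459) a log2 fold change of -1.54 (SE 1.14, 95% interval -4.26 to 1.19, adjusted p = 0.728). Without Flox 3 it was -0.10 (interval -0.55 to 0.35). Ifit2 stood at 0.904, 1.14 and 0.879 FPKM in HKO, against 0.696, 0.857 and 7.44 FPKM in Flox. Eif2ak2, the kinase PKR that halts translation on double-stranded RNA, stood at 2.94, 4.44 and 3.62 FPKM in HKO, against 2.66, 2.84 and 10.6 FPKM in Flox. Both genes were higher in all HKO livers than in Flox 1 and Flox 2, without passing in limma when Flox 3 was left out (adjusted p = 0.541 and 0.381).

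Genes of ISG15 conjugation followed. ISG15 is a ubiquitin-like protein, HERC6 is the main ligase that attaches it in mice, and USP18 removes it and damps the receptor. Isg15 (ENSMUSG00000035692) stood at 27.6, 14.9 and 11.6 FPKM in HKO, against 16.4, 24.6 and 199 FPKM in Flox. Its log2 fold change in limma was -1.32 (SE 0.902, adjusted p = 0.717), and -0.24 without Flox 3 (SE 0.376). A processed pseudogene, AC151275.1, matches 64% of the Isg15 transcript at 95.2% identity. Usp18 stood at 5.90, 3.72 and 2.69 FPKM in HKO, against 3.47, 5.07 and 37.2 FPKM in Flox. Herc6 stood at 1.31, 1.24 and 1.12 FPKM in HKO, against 1.14, 1.17 and 5.40 FPKM in Flox. Its exons share 13.7% of their bases with Gm45193 on the same strand. In the 5 libraries other than Flox 3, Herc6 was nearly level, while Isg15 and Usp18 were higher in HKO 1 and Flox 2 than in HKO 2, HKO 3 and Flox 1.

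The 2′-5′-oligoadenylate synthetases make the second messenger that activates RNase L, an enzyme that degrades RNA in infected cells. Oas1a stood at 2.87, 2.26 and 1.60 FPKM in HKO, against 1.62, 2.25 and 13.5 FPKM in Flox. Its neighbour Oas1g is 97.6% identical over most of the transcript, so their reads are uncertain. Oas1g had 43, 16 and 20 reads in HKO, against 12, 22 and 129 in Flox. Oasl1, which in mice restrains Irf7 translation, stood at 5.64, 5.86 and 4.78 FPKM in HKO, against 4.69, 6.17 and 37.2 FPKM in Flox. It was thus level between HKO and the first 2 Flox libraries (log2 fold change 0.00, SE 0.143 in limma without Flox 3). Oasl2 stood at 0.508 to 0.9995 FPKM in HKO and at 0.408, 0.634 and 5.31 FPKM in Flox. Oas2 had 35, 33 and 42 reads in HKO and 20, 33 and 120 in Flox, and Oas3 had 42, 21 and 22 in HKO and 9, 11 and 185 in Flox. Both were below the filter, yet Flox 3 again held the most reads.

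The 5 sensors of nucleic acid stood in Flox 3 at 2.83 to 4.94 times the next library. Dhx58, the RNA sensor LGP2, had the smallest unadjusted p of the set (0.114 in limma). It stood at 3.70, 3.06 and 2.64 FPKM in HKO, against 3.58, 4.65 and 18.4 FPKM in Flox (log2 fold change -0.95 with SE 0.521 and an adjusted p of 0.685). Without Flox 3 its log2 fold change was -0.31 (SE 0.154, adjusted p = 0.381 in limma), the lowest of the 36. Ddx58, which encodes RIG-I, stood at 4.22, 4.68 and 4.31 FPKM in HKO, against 3.72, 3.50 and 14.2 FPKM in Flox. Ifih1, which encodes MDA5, stood at 5.05, 5.49 and 5.28 FPKM in HKO, against 4.75, 4.98 and 15.5 FPKM in Flox. Both RNA helicases were slightly above Flox 1 and Flox 2 in all 3 HKO livers. Ddx60, a helicase linked to RIG-I signalling, stood at 0.677 to 1.14 FPKM in HKO and at 0.952, 0.744 and 5.61 FPKM in Flox. Zbp1, a sensor of Z-form nucleic acid that can trigger cell death, stood at 6.44, 1.63 and 0.902 FPKM in HKO, against 1.84, 1.97 and 18.7 FPKM in Flox. It was the gene in which HKO 1 differed most from the other HKO livers, by a ratio of 7.14 to the lowest of them.

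Of the transcription factors, Irf7 varied most. IRF7 drives the amplifying wave of interferon genes, and STAT2 and IRF9 are parts of ISGF3. Irf7 (ENSMUSG00000025498) stood at 24.6, 8.82 and 7.78 FPKM in HKO, against 7.55, 12.0 and 63.6 FPKM in Flox. HKO 1 was the second highest library and Flox 3 the highest. Its log2 fold change was -0.57 in limma (SE 0.799, adjusted p = 0.839) and 0.30 without Flox 3 (SE 0.510). Stat2 stood at 11.6, 9.69 and 9.74 FPKM in HKO, against 9.95, 10.8 and 19.1 FPKM in Flox. Irf9 stood at 8.72, 6.59 and 4.96 FPKM in HKO, against 6.69, 8.04 and 15.6 FPKM in Flox (log2 fold change -0.46 with SE 0.313 and an adjusted p of 0.712 in limma). Without Flox 3 the log2 fold change of Irf9 was -0.13 (SE 0.214). Stat2 and Irf9 were less than 2-fold higher in Flox 3 than in the next library, at ratios of 1.64 and 1.79.

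Bst2 had the highest level of the set on the length-scaled FPKM measure and the narrowest gap. It encodes tetherin, which holds budding virus at the cell surface, and stood at 206, 139.9 and 127.6 FPKM in HKO, against 156, 190.1 and 309 FPKM in Flox. Its log2 fold change was -0.43 in limma (SE 0.291, adjusted p = 0.709), and -0.15 without Flox 3 (SE 0.230). Rsad2, the radical enzyme viperin that makes a chain-ending nucleotide, stood at 2.02, 2.004 and 2.15 FPKM in HKO, against 1.53, 2.14 and 18.6 FPKM in Flox. Cmpk2, a mitochondrial nucleotide kinase encoded beside it, stood at 2.34, 1.99 and 1.32 FPKM in HKO, against 1.92, 1.92 and 16.0 FPKM in Flox. Flox 3 stood at 8.65 times the next library for Rsad2 and at 6.83 times for Cmpk2. Mx1 and Mx2 encode GTPases that trap viral capsids and are disrupted in many laboratory strains. Mx2, typed as a polymorphic pseudogene in the deposited table, stood at 1.58, 1.56 and 1.04 FPKM in HKO, against 1.17, 1.23 and 8.23 FPKM in Flox. Mx1 had 41, 24 and 14 reads in HKO, against 18, 16 and 157 reads in Flox.

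The ADP-ribosyltransferase genes Parp9 and Parp14 and Dtx3l, the ubiquitin ligase partner of PARP9, had narrow gaps. Parp9 stood at 12.4, 10.97 and 10.3 FPKM in HKO, against 10.9, 11.7 and 30.3 FPKM in Flox. Dtx3l stood at 9.68, 10.2 and 9.77 FPKM in HKO, against 10.4, 6.999 and 21.7 FPKM in Flox. Their exons overlap on opposite strands by 9.4% of Parp9 and 8% of Dtx3l, and the library kit does not mark strand. Parp14 stood at 4.93, 5.16 and 3.39 FPKM in HKO, against 3.03, 3.01 and 12.6 FPKM in Flox. Without Flox 3 its log2 fold change was 0.43 (SE 0.165, adjusted p = 0.308 in limma). All 3 HKO libraries were then above both Flox libraries.

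The other 9 genes have varied or less certain roles. Ifi44 had the widest range among genes of at least 1 FPKM on average, with the highest library 33.7 times the lowest. It stood at 0.929, 0.958 and 0.528 FPKM in HKO, against 0.446, 0.352 and 11.8 FPKM in Flox, and was the lowest in Flox 2 and the highest in Flox 3. Trim30a, a ligase that damps Toll-like receptor signalling in mice, stood at 1.91, 1.98 and 1.67 FPKM in HKO, against 0.997, 1.15 and 10.6 FPKM in Flox. Its log2 fold change without Flox 3 was 0.46 (SE 0.108, adjusted p = 0.256 in limma), the highest of the 36. Rtp4, a chaperone of receptors that is strongly induced by interferon, stood at 12.96, 8.04 and 6.18 FPKM in HKO, against 9.22, 10.5 and 46.96 FPKM in Flox. Its exons share 13.9% of their bases with Gm45338 on the same strand. Lgals3bp, a secreted glycoprotein, stood at 31.7, 22.9 and 23.2 FPKM in HKO, against 21.6, 30.5 and 60.3 FPKM in Flox. Without Flox 3 the groups were level for it (log2 fold change 0.00, SE 0.205 in limma). Ifi27l2a stood at 18.4, 13.1 and 5.82 FPKM in HKO, against 13.6, 9.89 and 37.3 FPKM in Flox, with a wide spread within both groups. Ifi35 stood at 14.1, 9.64 and 8.40 FPKM in HKO, against 10.4, 12.5 and 23.4 FPKM in Flox, and 16.8% of its exon bases overlap Gm11626 on the other strand. Ifi47, an immunity-related GTPase more often studied with interferon gamma, stood at 22.7, 13.9 and 9.10 FPKM in HKO, against 14.4, 14.2 and 41.1 FPKM in Flox. HKO 1 lay between Flox 3 and the remaining 4 libraries for it. Xaf1 and Helz2 completed the set, at 0.920 to 1.86 and 7.48 to 9.19 FPKM in HKO. In Flox they stood at 1.44, 1.19 and 9.21 FPKM and at 6.91, 8.71 and 15.4 FPKM.

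Within HKO the livers were not alike either. HKO 1 was the highest HKO library for 28 of the 39 genes and HKO 3 the lowest for 29. HKO 1 was the second highest library of all for 26 of the 39, and for 24 of the 36 tested, beside 16.6% of all genes. HKO 3 was the lowest of the 6 libraries for 20 of the 39, and for 19 of the 36 tested, beside 16.7% of all genes. Flox 1 was the lowest for 13 of the 39, and for 11 of the 36, beside 14.6% of all genes. The ratio of the highest to the lowest HKO library had a median of 1.56. After subtracting each gene's mean log2 value, the average of the 36 tested genes was -0.05, -0.33 and -0.56 in HKO 1, HKO 2 and HKO 3, against -0.44, -0.31 and 1.70 in Flox 1, Flox 2 and Flox 3. HKO 1 thus stood nearest to Flox 3, though still far from it.

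Transcripts of the interferons themselves were not detectable or nearly so. Of 22 type I, II and III interferon genes, 19, among them Ifnb1 and all Ifna genes, had 0 reads in all 6 libraries, which allows up to 3 reads per library. The 3 others were Ifng, Ifnk and Ifnz. All 22 together had 4, 2 and 2 reads in HKO, against 3, 2 and 5 reads in Flox. Of the 5 reads in Flox 3, 4 were of Ifng. The depth thus does not show which interferon, if any, was transcribed in these livers.

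Receptor and signalling genes showed no group difference that passed. Of the 15 tested, 4 were highest in Flox 3, beside 14.2% of all genes. Ifnar1 stood at 6.53, 6.04 and 5.47 FPKM in HKO, against 7.35, 7.78 and 6.40 FPKM in Flox (log2 fold change -0.22, adjusted p = 0.674 in limma). Ifnar2 stood at 12.5, 9.76 and 9.64 FPKM in HKO, against 9.44, 12.6 and 10.3 FPKM in Flox. Neither receptor subunit was highest in Flox 3, but Jak1 and Irf2 were. Jak1 stood at 12.7, 14.8 and 13.8 FPKM in HKO, against 11.1, 11.6 and 15.5 FPKM in Flox. Tyk2 lay between 3.41 and 4.17 FPKM in HKO and between 3.30 and 3.52 FPKM in Flox. Irf2, which represses interferon-stimulated genes, stood at 5.22, 5.18 and 6.69 FPKM in HKO, against 6.67, 7.48 and 8.66 FPKM in Flox (unadjusted p = 0.0295, adjusted p = 0.648 in limma). Of 15 tested genes in this list 7 were higher and 8 lower in HKO, with a median of -0.01, and 0 passed. Under TPM, quantile normalization or scaling by assigned reads 9 were higher and 6 lower. The same counts, with a median of 0.05, were found without Flox 3.

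Of 17 tested genes listed for nucleic acid sensing, 11 were highest in Flox 3, beside 14.2% of all genes. Not all of them are sensors, as the list also holds adaptors and factors such as Traf3 and Irf3. It includes G3bp1, the deleted gene, which was highest in Flox 3 and lower in HKO. Tlr3, the endosomal receptor of double-stranded RNA, stood at 1.05, 1.22 and 1.32 FPKM in HKO, against 1.51, 1.40 and 3.30 FPKM in Flox. Mavs, the adaptor of RIG-I and MDA5, stood at 25.9, 26.9 and 29.1 FPKM in HKO, against 27.0, 24.6 and 30.6 FPKM in Flox. Irf3, the first factor to act after sensing, stood at 16.2, 12.9 and 13.3 FPKM in HKO, against 17.7, 18.9 and 13.7 FPKM in Flox. Flox 3 was thus the highest for Tlr3, narrowly for Mavs and not for Irf3. Tmem173, which encodes STING, stood at 0.955, 0.859 and 1.45 FPKM in HKO, against 1.07, 0.614 and 0.724 FPKM in Flox. Mb21d1, which encodes cGAS, lay at or under 0.115 FPKM in all 6 libraries, and Tlr7 at or under 0.700 FPKM, both below the filter. Traf3, an adaptor of both routes, stood at 2.06, 2.33 and 2.07 FPKM in HKO, against 1.58, 1.56 and 1.78 FPKM in Flox, without overlap (6.06% of all genes had HKO above). Its unadjusted p was 0.0275 and its adjusted p 0.648 in limma. Of the 17 genes 5 were higher and 12 lower in HKO (median -0.11), but 11 were higher under TPM and 11 without Flox 3. None passed in limma, and G3bp1 passed with voom.

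A further 34 interferon-stimulated genes, listed apart from the set, showed the same library. That list was also chosen with earlier results of these data known, so its counts are no independent check of the set. Of the 28 tested, 26 were highest in Flox 3, and 14 of them by at least 2-fold. In HKO 27 were lower and 1 higher (median -0.41), 22 lower under TPM and 25 under quantile normalization or scaling by assigned reads, and 14 were lower without Flox 3 (median -0.02). None of the 28 passed in limma. The following 3 were named after their values were seen. Rnf213, a large ligase, stood at 5.22, 5.58 and 4.23 FPKM in HKO, against 3.31, 3.49 and 25.9 FPKM in Flox. Cxcl10, a chemokine of T cells, stood at 3.68, 1.38 and 1.39 FPKM in HKO, against 1.27, 1.94 and 12.8 FPKM in Flox. Ly6e, a membrane protein that hinders viral fusion, was the 1 gene with a higher mean log2 value in HKO. It stood at 125, 115 and 120.45 FPKM in HKO, against 71.5, 69.6 and 235 FPKM in Flox, so HKO lay between Flox 3 and the other Flox livers.

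**Figure D4:**
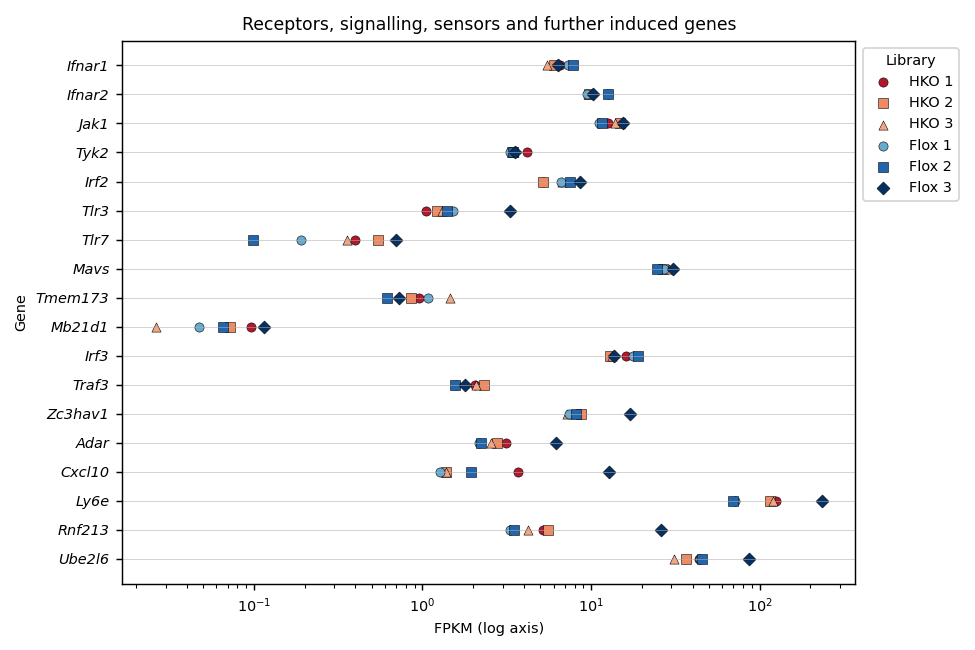
FPKM on a log axis of receptor, signalling, sensor and further interferon-stimulated genes in each library, HKO in red shades and Flox in blue shades. Flox 3 (dark diamond) lies among the other libraries for Ifnar1, Ifnar2 and Irf3 and to the right of them for Tlr3, Cxcl10, Ly6e and Rnf213.

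By a margin of 2-fold or 3-fold, more genes stood apart in Flox 3 than in any other library. The number of genes for which 1 library exceeded all others by at least 2-fold was 20, 14 and 22 for HKO 1, HKO 2 and HKO 3, against 14, 18 and 85 for Flox 1, Flox 2 and Flox 3. At 3-fold the numbers were 6, 3 and 3 in HKO and 1, 4 and 40 in Flox. Of the 40 genes of Flox 3, 21 belonged to the set and 6 more to the further list. Oas1g, Slfn8, Ifi209 and Snora17 were among the 40 and reached the filter only through Flox 3. The assigned reads of Flox 3 (16331199) lay within the range of the other libraries (15804115 to 17954066).

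**Figure D5:**
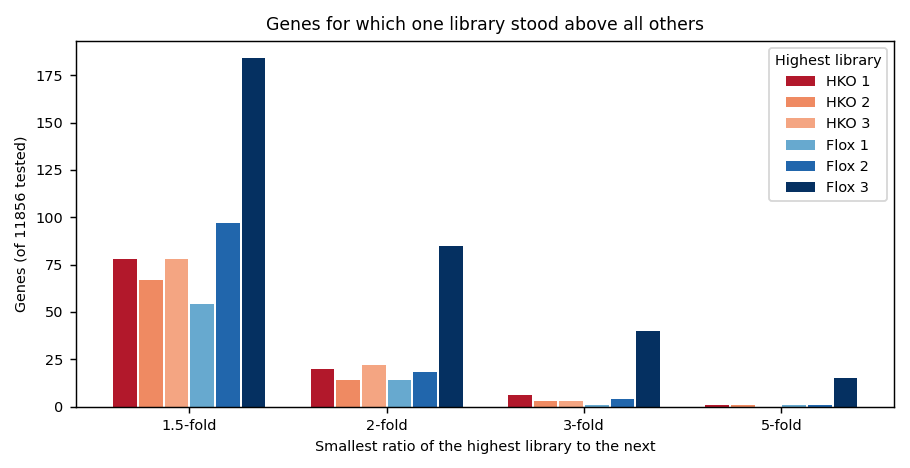
Number of genes, of 11856 tested, for which a given library was the highest by at least the ratio on the horizontal axis over the next library. Flox 3 leads at each of the ratios drawn, which start at 1.5-fold, with 85 genes at 2-fold and 40 at 3-fold, while the other libraries have 14 to 22 and 1 to 6.

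Markers of other cell types moved with Flox 3 in part, and bulk RNA cannot tell more cells of a type from more RNA per cell. The 5 monocyte markers summed to 7.52, 4.71 and 5.32 FPKM in HKO, against 3.51, 3.59 and 13.3 FPKM in Flox, of which Plac8 made up 11.6 FPKM in Flox 3. Only 1 of the 5 passed the filter. The 12 Kupffer cell markers summed to 365, 223 and 275 FPKM in HKO, against 149, 170.2 and 272 FPKM in Flox, so that Flox 3 lay within the HKO range. All 12 had a higher mean in HKO (median log2 fold change 0.69), beside 48.8% of all genes. In limma 4 of them had an unadjusted p under 0.05, beside 3.08% of all genes as higher. Without Flox 3 all 12 were again higher (median 0.78). Then 10 had an unadjusted p under 0.05 in limma, beside 6.65% of all genes as higher. None passed in either fit. The 6 plasmacytoid dendritic cell markers summed to 1.14 to 2.58 FPKM in HKO and 2.15 to 2.67 FPKM in Flox. In Flox 3 Siglech had 3 reads and Klk1 had 0, while 1 of the 2 tested markers was highest there. The 6 together had 216, 262 and 284 reads in HKO, against 194, 173 and 284 in Flox. The 6 neutrophil markers summed to 1.81 to 3.36 FPKM in HKO and 1.97 to 5.64 FPKM in Flox, with Flox 3 the lowest Flox library. Camp was at 0 in all 6 libraries, and Ngp at 0 in Flox 3. The 6 T and NK cell markers summed to 1.49 to 3.34 FPKM in HKO and 1.07 to 2.43 FPKM in Flox, with 1.75 in Flox 3. The sum of the 4 B cell markers was lowest in Flox 3, at 0.909 FPKM. It rested on 30 reads there, close to 31 in Flox 2 and 36 in Flox 1. Sinusoidal endothelial, stellate and cholangiocyte markers summed in Flox 3 to 24.3, 33.7 and 3.19 FPKM, each within the HKO range. The part of all these cells in the Flox 3 values was not tested.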

How the data were processed

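RNA-seq of 6 mouse liver libraries (3 HKO, 3 Flox) was deposited as 1 table of FPKM values per gene and library, per the file headers, with gene lengths. Total RNA went into NEBNext Ultra RNA libraries, per the labels' protocols. The submitters' processing notes name the builds GRCm38 and mm10. Aligner and counter are not given here. All 39 genes had GENCODE M21 coordinates. Reads were recovered from FPKM and length, and 100% of values came out whole (tolerance 0.02 reads). The depth used by the authors for FPKM was 0.934 to 1.055 times these summed reads.

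Because FPKM are not counts, log2(FPKM + 1) was fitted with limma 3.58.1 in R 4.3.3 (statmod 1.5.0; trend, robust, two-sided) for the 11856 genes reaching 0.5 FPKM in 3 or more libraries, and p-values were adjusted by Benjamini-Hochberg (threshold 0.05). Fold changes are HKO minus Flox and understate low genes. The fit was tested on simulated counts with the same added variation for every gene and no library standing apart. That test does not cover a library such as Flox 3. Transcript copies came from blastn 2.17.0 (97% identity over 80% of the length, 4 genes). The alternatives were other pseudocounts, filters, scalings, voom, a replicate block and leaving out each library. The limit of 3 reads given for 0 reads covers counting error only. The genes and lists were chosen with earlier results of these data known. Per-library values were given for the 12 genes with the highest FPKM, the smallest p-values and the widest ranges, and then for the rest in full or as ranges. The values of 1 gene in the signalling list are not reported here. Symbols of 27 genes that had become calendar dates matched no list.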

Additional observations from a re-analysis of the deposited data

How the results depend on the processing

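The direction of the set rests on Flox 3. Leaving out each library in turn gave 0 to 21 genes of the set with a higher HKO mean and medians of -0.88 to 0.03, the upper ends without Flox 3. Under TPM, which moved the median of all genes by 0.15, 1 gene was higher, Parp14 (0.010). Without HKO 3, 1 gene of the set was higher as well. No gene of the set passed under any of the 14 alternatives run. Over all genes 1 passed, and 0 with no filter, 3 with voom, 0 with the replicate block and 0 to 13 with 1 library left out (13 without HKO 1). Same-numbered libraries did not deviate together (correlations of 0.02, 0.01 and 0.07 for numbers 1, 2 and 3), and the block changed no call of the set. The log2 fold changes that turned positive without Flox 3 ranged, over the 6 fits with 1 library left out, from -1.005 to 0.15 for Ifit2, -0.53 to 0.30 for Eif2ak2, -0.75 to 0.042 for Herc6, -1.10 to 0.13 for Oas1a, -0.71 to 0.13 for Oas1g, -1.37 to 0.0046 for Oasl1, -0.87 to 0.21 for Oasl2, -0.67 to 0.10 for Ifih1, -0.65 to 0.23 for Ddx58, -0.92 to 0.038 for Ddx60, -1.30 to 0.20 for Zbp1, -1.16 to 0.30 for Irf7, -0.93 to 0.11 for Mx2, -1.36 to 0.12 for Rsad2, -0.45 to 0.43 for Parp14, -0.56 to 0.19 for Dtx3l, -1.26 to 0.36 for Ifi44, -0.81 to 0.46 for Trim30a, -1.09 to 0.018 for Xaf1, -0.72 to 0.0022 for Lgals3bp and -0.41 to 0.11 for Helz2. Depth limits the 3 genes below the filter, which had 9 to 42 reads outside Flox 3.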

Other observations

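Genes outside the lists that stood apart in Flox 3 were looked up after their values were seen. Of the 40 genes highest in Flox 3 by at least 3-fold, 13 belonged neither to the set nor to the further list. Among them were the interferon-induced GTPase genes Gbp3, Gbp7 and Gbp10. Gbp3 stood at 5.54, 2.83 and 2.18 FPKM in HKO, against 2.25, 2.60 and 23.4 FPKM in Flox. Gbp10 stood at 4.32, 1.86 and 1.04 FPKM in HKO, against 1.63, 1.90 and 16.2 FPKM in Flox. Gm12250 stood at 9.25, 2.35 and 1.48 FPKM in HKO, against 1.69, 1.22 and 34.8 FPKM in Flox. In all 3 HKO 1 was the second highest library, as for Irf7 and Zbp1. Samd9l, an antiviral factor, stood at 4.66, 5.11 and 5.16 FPKM in HKO, against 4.88, 4.52 and 16.3 FPKM in Flox, so HKO 1 did not stand out for it. Upp2, a uridine phosphorylase, stood at 14.4, 13.5 and 23.8 FPKM in HKO, against 20.4, 15.5 and 74.8 FPKM in Flox.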
